A study of Mus musculus with 30 samples.

Results

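The unfolded protein response and the integrated stress response were followed through 10 genes in whole mouse lung: Xbp1, Atf4, Ddit3, Trib3, Asns, Hspa5, Dnajb9, Sdf2l1, Pdia4 and Herpud1. The genes were chosen by name, with earlier results of these data known. The platform annotation assigned them 22 of the 45037 probe sets on the array. Of these, 20 passed the filter on dim probe sets, and the probe sets of Ddit3 and Pdia4 that failed never exceeded the median of their own array. All 10 genes were therefore among the 13089 genes tested, each represented by its brightest probe set. RNA of 30 C57BL/6 mice, 1 animal per array, was measured in 8 groups. At 16 weeks of age (adult), 4 mice inhaled lipopolysaccharide (LPS) and were then mechanically ventilated (LPS+MV), 4 inhaled LPS only, 4 were ventilated only (MV) and 4 were untreated controls. At 21 days (juvenile), there were 3 LPS+MV, 4 LPS, 3 MV and 4 control mice. LPS of E. coli, a bacterial outer membrane component, was given as 20 mL of a 0.1 mg/mL aerosol over 30 min. Ventilation used a tidal volume of 15 mL/kg, 80 breaths/min, 30% oxygen and an end expiratory pressure of 2 cm H2O. MV lasted 2 h, mice given LPS alone breathed spontaneously for 2 h after the aerosol, and controls were untreated and breathed spontaneously. The design asks whether age alters the response of the lung to LPS, ventilation and their combination.

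Proteins that enter the secretory pathway fold in the endoplasmic reticulum (ER), and unfolded protein there is sensed by IRE1, PERK and ATF6. IRE1 splices the Xbp1 transcript, ATF6 and the spliced XBP1 factor raise transcription of ER chaperones and of ER-associated degradation (ERAD), and PERK phosphorylates the translation factor eIF2α. Other kinases that sense amino acid shortage, haem shortage or double-stranded RNA phosphorylate eIF2α too, which is why the wider pathway is called the integrated stress response. Phosphorylated eIF2α lowers general translation but favours translation of ATF4, which activates genes of amino acid supply and, with CHOP (encoded by Ddit3), genes of prolonged stress. In lung, alveolar type 2 cells and airway secretory cells carry a heavy secretory load.

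These factors bind known short motifs, and the promoters of Hspa5, Herpud1 and Asns are shown because each holds one of them. The sequences are the 250 bases before the annotated start in RefSeq on GRCm38.p6, which listed a promoter for all 10 genes. Capitals mark a match to one of 4 motifs, which are the ER stress element (CCAAT and CCACG with any 9 bases between them), the second ER stress element (ATTGG and CCACG with any 1 base between them), the XBP1 and ATF6 core TGACGTG, and the C/EBP-ATF element TGATGNAA. Hspa5 lies on chr2:34771840-34772089 (plus strand), Herpud1 on chr8:94386179-94386428 (plus strand) and Asns on chr6:7693210-7693459 (minus strand).
Hspa5: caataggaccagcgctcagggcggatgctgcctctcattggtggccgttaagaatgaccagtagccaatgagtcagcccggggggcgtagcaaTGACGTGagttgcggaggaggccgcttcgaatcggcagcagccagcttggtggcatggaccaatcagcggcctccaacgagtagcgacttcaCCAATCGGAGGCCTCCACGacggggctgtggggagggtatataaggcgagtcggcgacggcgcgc
Herpud1: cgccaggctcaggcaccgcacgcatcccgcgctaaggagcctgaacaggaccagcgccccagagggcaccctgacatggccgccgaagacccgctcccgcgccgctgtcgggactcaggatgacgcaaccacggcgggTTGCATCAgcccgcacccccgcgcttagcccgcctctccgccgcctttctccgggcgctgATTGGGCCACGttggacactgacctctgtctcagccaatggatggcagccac
Asns: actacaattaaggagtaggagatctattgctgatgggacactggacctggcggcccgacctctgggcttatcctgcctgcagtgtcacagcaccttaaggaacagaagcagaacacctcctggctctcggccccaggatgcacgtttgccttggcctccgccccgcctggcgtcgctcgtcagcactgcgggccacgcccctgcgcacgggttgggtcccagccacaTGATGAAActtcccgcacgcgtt

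The ER stress element, to which ATF6 and XBP1 bind with NF-Y, was present in 39 of 32851 RefSeq windows (0.119%) that ran from 250 bases before to 50 bases after a start, both strands searched. Among the 10 genes it stood only in Hspa5, from base -65 to base -47. TGACGTG, the core of an XBP1 and ATF6 site, stood at -157 to -151 of Hspa5 and in 2.01% of all windows. The second ER stress element was found in 0.0365% of windows and, among the 10, in Herpud1 alone, at -52 to -42. Its search was added after the other motifs had been searched. TGATGNAA, the C/EBP-ATF element read by ATF4 dimers, was found in 3.97% of windows and in 3 of the 10 genes: at -23 to -16 of Asns, at -112 to -105 of Herpud1 on the other strand, and at 15 to 22 after the start of Trib3, also on the other strand. The short element CCACG, which both ER stress elements contain, stood in 32.8% of windows and in 7 of the 10 genes. A match describes the letters and shows no binding.

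Values are probe set intensities on a linear scale, and whether the background of the array was subtracted is not given in the sources used here. Log2 fold changes are on log2(intensity + 32), which understates the change of dim genes, with the standard error (SE) and 95% interval of limma's moderated test, and a gene is said to rise or fall where its p-value, adjusted by Benjamini and Hochberg over all 13089 genes, was under 0.05. In whole lung, more cells of a type and more RNA per cell cannot be told apart. The 6 lung epithelium markers summed to 60510.2 to 74938 over all arrays. Among them Sftpc of type 2 cells was at 18124 or more on every array, while Ager of type 1 cells fell with adult LPS+MV (-0.63 ± 0.08 (adjusted p = 9.7e-07)), LPS (-0.35 ± 0.08 (adjusted p = 0.0015)) and MV (-0.60 ± 0.08 (adjusted p = 9.4e-06)), and Sftpb of type 2 cells fell with adult LPS+MV (-0.53 ± 0.17 (adjusted p = 0.013)) and LPS (-0.72 ± 0.17 (adjusted p = 0.0016)) and differed by -0.35 ± 0.17 (adjusted p = 0.11) with MV. Sftpa1, also of type 2 cells, averaged 12222 after adult LPS+MV, 12576 after LPS and 12962 after MV, against 11462 in adult controls. Sftpc averaged 20284, 20092 and 21206 in the same order, against 19576. The means of Sftpa1 and Sftpc thus did not fall with Sftpb. In juveniles 0 of the 6 epithelium markers passed in any comparison with control.

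Some arrays stood apart in ways the groups do not explain. The sex is not given, and Xist, transcribed from an inactive X chromosome, was high on 4 of 4 adult MV, 3 of 4 adult LPS+MV, 0 of 4 adult LPS and 0 of 4 adult control arrays. In juveniles it was high on 2 of 3 LPS+MV, 0 of 4 LPS, 1 of 3 MV and 1 of 4 control arrays. The Y-linked gene Eif2s3y read 5.8 to 10.1 on every array high in Xist and 159.6 to 237.5 on every other array. By these genes the arrays high in Xist were from females and the others from males. In adults, MV and this pattern cannot be told apart, whereas the adult LPS and control arrays were all low in Xist. Cytosolic heat shock genes (13 measured) had a mean log2 value of 12.1 on juvenile MV replicate 3 and of 11.3 on juvenile LPS+MV replicate 3, against 9.10 to 10.8 on the other 28 arrays. Juvenile MV replicate 3 was the highest of its 3 arrays for all 10 genes. Juvenile LPS+MV replicate 3 was the highest of its 3 arrays for 5 of 10 genes and the lowest for 4 of 10.

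**Figure D1:**
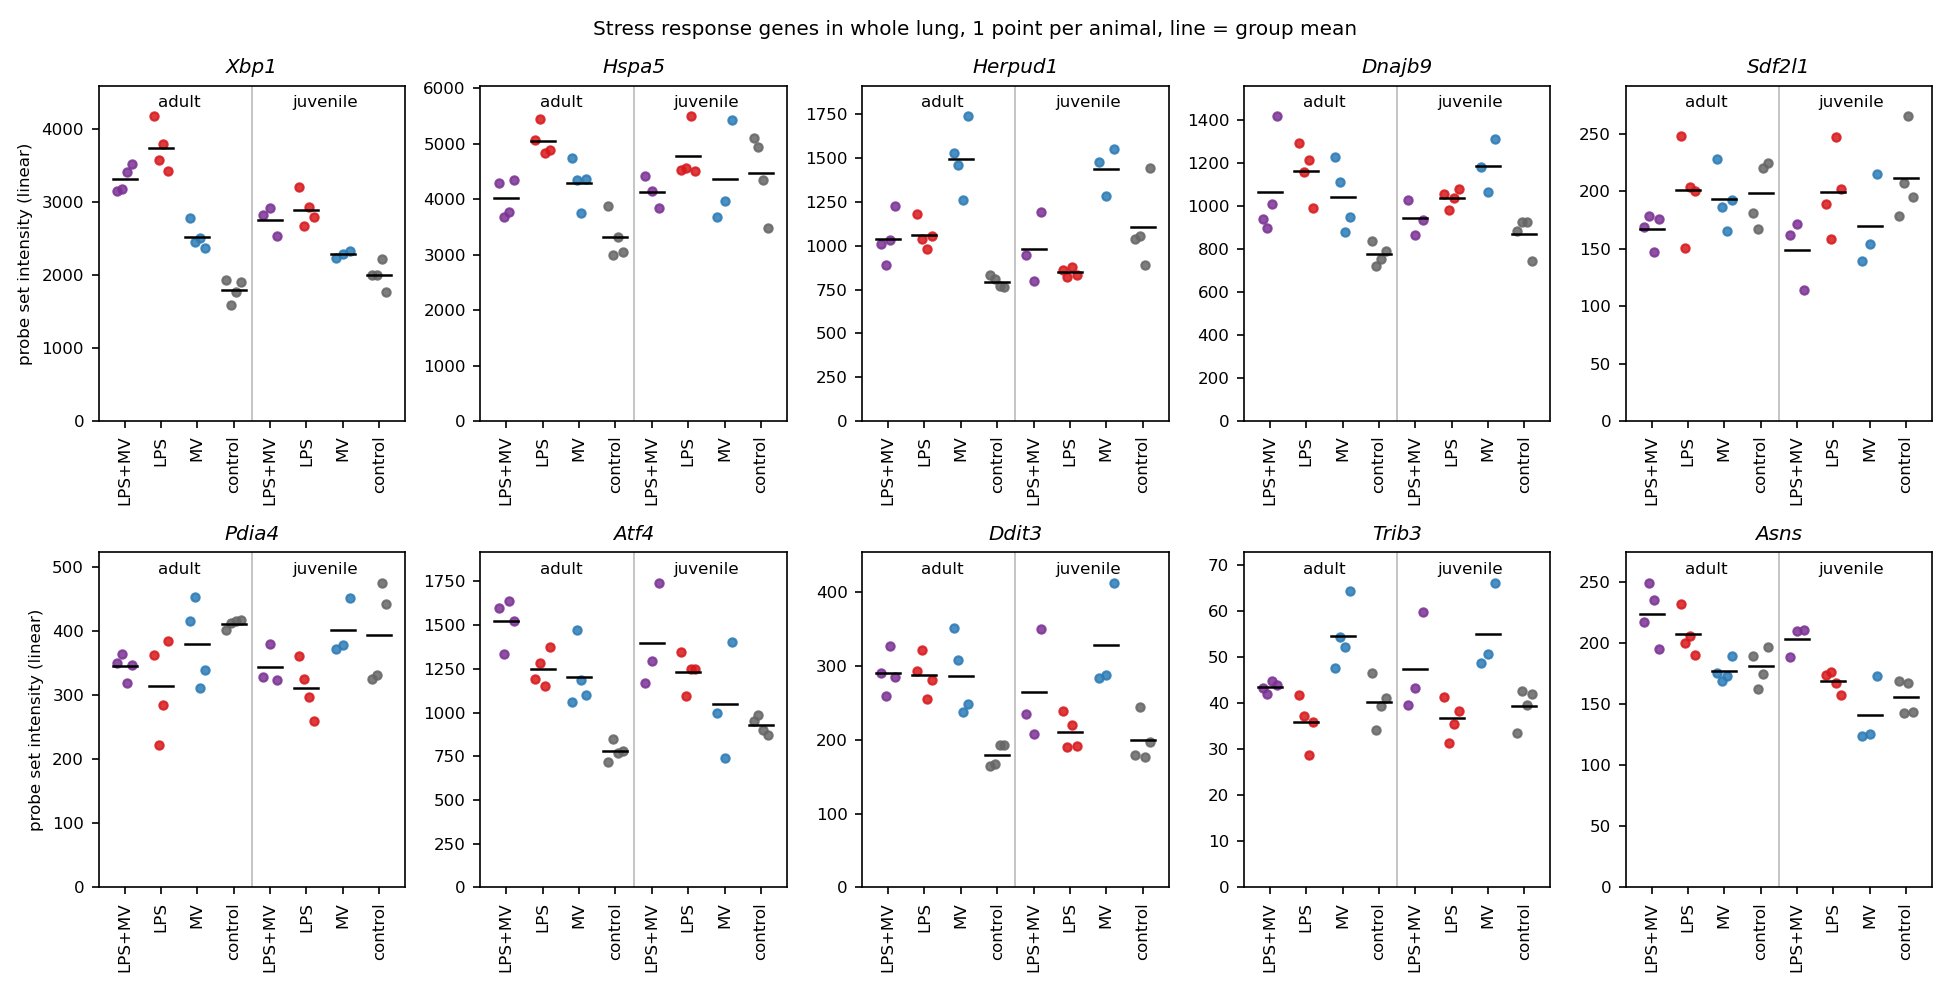
Probe set intensity (linear, y axis from 0) of the 10 genes in 8 groups, adults left and juveniles right in each panel. Each point is 1 animal and each line a group mean. For Xbp1, Atf4, Ddit3, Dnajb9 and Herpud1 all treated adults lie above all adult controls, which was not counted over all genes. Herpud1 has its highest group mean in MV at both ages, and Sdf2l1 shows little separation.

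In adults, 6 or 7 of the 10 genes rose with each treatment. After MV alone 7 rose and 0 fell, with 7.17% of all genes tested rising and 24.3% falling. With the Xist term 3 of the 10 passed with adult MV, and Xist was high on all adult MV arrays and on no adult control array. After LPS alone 6 rose and 1 fell, with 12.9% of all genes rising and 23% falling. After LPS+MV 7 rose and 0 fell, with 14.8% of all genes rising and 27.3% falling. The median log2 fold change of the 10 genes was 0.39 after MV, 0.48 after LPS and 0.33 after LPS+MV, and over all genes it was -0.06, -0.04 and -0.05. These comparisons share the 4 control arrays, so they are not independent of each other. With quantile normalization, 41.5% of the genes called with adult MV were higher, against 22.8% as given here, and no sign among the 10 genes turned.

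Juvenile lungs showed fewer changes. After MV alone 3 genes rose and 0 fell (Ddit3, Dnajb9 and Trib3), with 4.41% of all genes rising and 6.45% falling, and without juvenile MV replicate 3 the count was 0. After LPS alone Xbp1 and Atf4 rose and Herpud1 fell, with 9.58% of all genes rising and 13.3% falling. After LPS+MV, Atf4, Xbp1 and Asns rose and Sdf2l1 fell, with 10.8% of all genes rising and 20.5% falling. The median log2 fold change of the 10 genes was 0.16 after MV, 0.08 after LPS and 0.13 after LPS+MV, against -0.02, -0.03 and -0.05 over all genes. Here too the 4 control arrays are shared, and groups of 3 animals have wider intervals. When the fit was restricted to the juvenile MV and control arrays, 0 of 10 genes passed and 27 of all genes did, against 1421 with the spread estimated from all 8 groups.

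**Figure D2:**
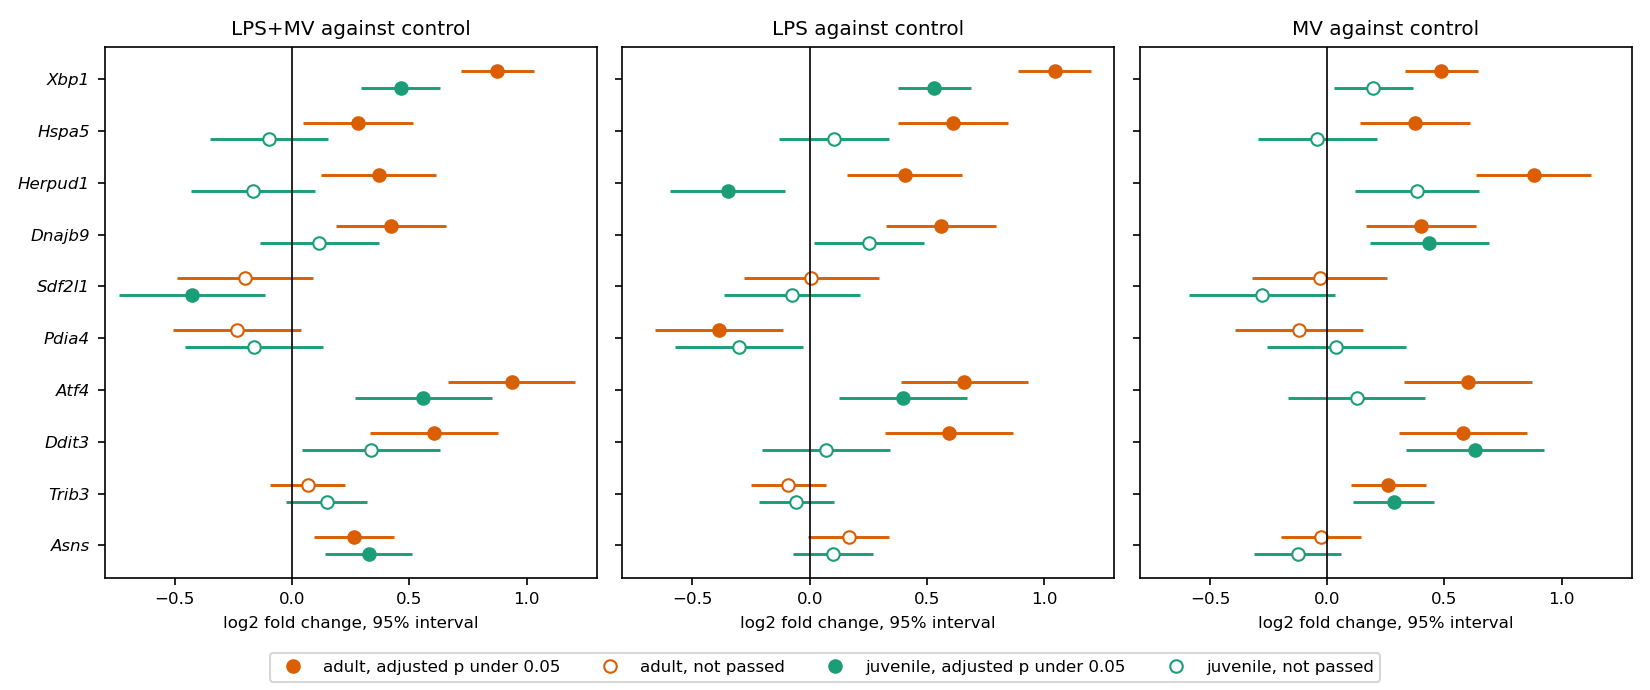
Log2 fold change against the control of the same age (x axis) with its 95% interval for each of the 10 genes, in adults (orange) and juveniles (green) after LPS+MV, LPS and MV. Filled points passed an adjusted p of 0.05. Most adult points lie to the right of the juvenile ones for Xbp1, Hspa5 and Herpud1, and the Ddit3, Dnajb9 and Trib3 points of both ages lie close together after MV.

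Xbp1 encodes the transcription factor that becomes active when IRE1 splices its transcript, and no probe set is annotated here as specific to the spliced form. In adults its intensity was 3157, 3184, 3410.1 and 3519 after LPS+MV, 4173, 3579, 3789 and 3429.6 after LPS and 2779, 2458, 2502 and 2369.7 after MV, against 1925, 1587, 1769 and 1909 in controls. The 3 treated groups did not overlap with the controls, and no LPS array was as low as any MV array. The log2 fold change was 0.88 ± 0.08 (adjusted p = 6.2e-10) after LPS+MV, 1.04 ± 0.08 (adjusted p = 2.2e-11) after LPS and 0.49 ± 0.08 (adjusted p = 3.9e-05) after MV. Juvenile values were 2824, 2916 and 2537 after LPS+MV, 3199.6, 2669, 2926 and 2794 after LPS and 2236, 2290.1 and 2327 after MV, against 2006, 1999, 2221 and 1762 in controls. The juvenile LPS and LPS+MV arrays were all above the juvenile controls, and MV arrays were above them by a narrow margin. Xbp1 rose by 0.46 ± 0.08 (adjusted p = 9.9e-05) with LPS+MV and by 0.53 ± 0.08 (adjusted p = 5.3e-06) with LPS in juveniles, and the difference after MV was 0.20 ± 0.08 (adjusted p = 0.13). From the highest to the lowest group, the mean ± SD was 3743 ± 322 in adult LPS, 3318 ± 176 in adult LPS+MV, 2897 ± 227 in juvenile LPS, 2759 ± 197 in juvenile LPS+MV, 2527 ± 177 in adult MV, 2284 ± 46 in juvenile MV, 1997 ± 187 in juvenile control and 1798 ± 157 in adult control. Neighbours in this order that were tested against each other did not differ past the threshold by limma. These pairs were adult LPS+MV and LPS (adjusted p = 0.18), juvenile LPS+MV and LPS (adjusted p = 0.64), juvenile MV and control (adjusted p = 0.13), and the controls of both ages. All 4 probe sets of Xbp1 rose after adult LPS, by 0.66 to 1.15.

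Atf4 encodes the factor that phosphorylated eIF2α brings into translation, so its transcript reports only part of its activity. In adults its intensity was 1597, 1334, 1639.7 and 1525 after LPS+MV, 1194, 1282, 1153 and 1374 after LPS and 1062, 1474, 1185 and 1102 after MV, against 719, 849.8, 769.7 and 779.8 in controls. Every treated adult lay above every adult control. Atf4 rose by 0.94 ± 0.13 (adjusted p = 2.4e-06) with LPS+MV, by 0.66 ± 0.13 (adjusted p = 0.00031) with LPS and by 0.60 ± 0.13 (adjusted p = 0.0012) with MV. The MV change was 0.37 (adjusted p = 0.13) with the Xist pattern as a term. Juvenile intensity was 1168, 1293 and 1741 after LPS+MV, 1348, 1092, 1248 and 1250.0 after LPS and 996, 743 and 1405 after MV, against 949.8, 984, 902 and 874 in controls. The LPS and LPS+MV arrays lay above all juvenile controls, whereas the 3 MV arrays spread from below to above them, with replicate 3 on top. Atf4 rose by 0.56 ± 0.14 (adjusted p = 0.0036) with LPS+MV and by 0.40 ± 0.13 (adjusted p = 0.029) with LPS, and differed by 0.13 ± 0.14 (adjusted p = 0.65) after MV. Without juvenile LPS+MV replicate 3 the first of these was 0.40 (adjusted p = 0.052). The LPS call ended without any one of control replicates 3 and 4 or LPS replicates 1, 3 and 4, with log2 fold changes of 0.36 to 0.39 and adjusted p of 0.06 to 0.085. A dimmer probe set of Atf4 that may bind related transcripts rose by 0.70 with juvenile MV, where the brightest one did not pass.

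Ddit3 encodes CHOP, a factor that ATF4 induces and that is linked to cell death under lasting ER stress. In adults it was at 290.1, 258, 326 and 284 after LPS+MV, 292, 321, 255 and 281 after LPS and 351, 307, 237 and 248 after MV, against 165, 167, 193 and 193 in controls. None of the 3 treated groups overlapped with the controls, and the treated groups overlapped with each other. The rises were 0.61 ± 0.13 (adjusted p = 0.00059) with LPS+MV, 0.59 ± 0.13 (adjusted p = 0.00093) with LPS and 0.58 ± 0.13 (adjusted p = 0.0018) with MV, the last of which was 0.46 (adjusted p = 0.077) with the Xist term. In juveniles Ddit3 was at 234, 208 and 349 after LPS+MV, 239, 189.7, 219 and 191 after LPS and 283, 288 and 412 after MV, against 179, 244, 176 and 197 in controls. Only the MV group stayed clear of the controls, and juvenile MV replicate 3 had the highest Ddit3 of all 30 arrays. With MV the juvenile rise was 0.63 ± 0.14 (adjusted p = 0.0063). Without that replicate it was 0.47 (adjusted p = 0.071), and 0.63 (adjusted p = 0.079) in the fit of these groups alone. The juvenile differences of 0.34 ± 0.14 (adjusted p = 0.077) with LPS+MV and 0.07 ± 0.13 (adjusted p = 0.77) with LPS did not pass. The first passed without control replicate 2, at 0.42 (adjusted p = 0.035), or without LPS+MV replicate 2, at 0.47 (adjusted p = 0.027).

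Trib3 encodes a pseudokinase that ATF4 and CHOP induce and that restrains both. It was dim, between 28.8 and 66.2 on all arrays, near the array medians of 21.6 to 22.8. After MV it was at 47.6, 54.4, 52.3 and 64.5 in adults, against 46.5, 34.2, 39.4 and 41.1 in adult controls, and at 48.8, 50.6 and 66.2 in juveniles, against 33.6, 42.8, 39.6 and 41.9 in juvenile controls. Neither MV group overlapped with its controls. Trib3 rose with MV by 0.26 ± 0.08 (adjusted p = 0.012) in adults and by 0.28 ± 0.08 (adjusted p = 0.03) in juveniles, and with a pseudocount of 1 in place of 32 these values were over 1.5 times as large. In adults the call was lost with the Xist term, at 0.15 (adjusted p = 0.34), without control replicate 2, at 0.22 (adjusted p = 0.053), and without MV replicate 4, at 0.21 (adjusted p = 0.056). In juveniles it was lost without MV replicate 3, at 0.19 (adjusted p = 0.21), and without control replicate 1, at 0.24 (adjusted p = 0.089). With LPS, Trib3 differed from control by -0.09 ± 0.08 in adults and -0.06 ± 0.08 in juveniles, and with LPS+MV by 0.07 ± 0.08 and 0.15 ± 0.08. None of these passed, and its other probe set moved by similar amounts.

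Asns encodes asparagine synthetase, a classic ATF4 target of amino acid supply. After LPS+MV it was at 217, 249.6, 236 and 195 in adults, against 189.9, 163, 175 and 197 in adult controls, and at 189, 211 and 211 in juveniles, against 169, 143, 167 and 144 in juvenile controls. The juvenile groups did not overlap, and 1 of 4 treated adults lay within the range of the controls. Asns rose with LPS+MV by 0.26 ± 0.08 (adjusted p = 0.012) in adults and 0.33 ± 0.09 (adjusted p = 0.0067) in juveniles. The adult rise was 0.10 (adjusted p = 0.37) with the Xist term, 0.22 (adjusted p = 0.054) without control replicate 2 and 0.22 (adjusted p = 0.054) without LPS+MV replicate 2. After LPS alone the differences were 0.17 ± 0.08 (adjusted p = 0.12) in adults and 0.10 ± 0.08 (adjusted p = 0.44) in juveniles, and after MV alone they were -0.03 ± 0.08 (adjusted p = 0.84) and -0.13 ± 0.09 (adjusted p = 0.41). These 4 did not pass, so Asns passed against control with the combined treatment alone at each age, and its difference between LPS+MV and LPS did not pass either (0.10 ± 0.08 (adjusted p = 0.52) in adults and 0.23 ± 0.09 (adjusted p = 0.088) in juveniles).

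Hspa5 encodes BiP, the ER chaperone of the Hsp70 family that also holds the sensors inactive. In adults it was at 4298, 3685, 3767 and 4352 after LPS+MV, 5065, 5449, 4829 and 4880.0 after LPS and 4748, 4352, 3745 and 4357 after MV, against 3872, 3002, 3324 and 3057 in controls. The LPS arrays were above all adult controls, and the ventilated groups overlapped with the highest control. Hspa5 rose by 0.61 ± 0.11 (adjusted p = 0.00014) with LPS and by 0.38 ± 0.11 (adjusted p = 0.013) with MV, and the change with MV was 0.34 (adjusted p = 0.14) with the Xist term. The LPS+MV rise of 0.28 ± 0.11 (adjusted p = 0.048) was at the threshold, and it ended under 7 of the 9 other settings with all arrays or on leaving out any one of 6 single arrays. In juveniles Hspa5 was at 4415, 4152 and 3848 after LPS+MV, 4529, 4566, 5493 and 4510.3 after LPS and 3677, 3973 and 5425 after MV, against 5103, 4948, 4356 and 3479 in controls. All 3 treated groups overlapped with the juvenile controls, and the differences were -0.10 ± 0.12 (adjusted p = 0.6), 0.10 ± 0.11 (adjusted p = 0.56) and -0.04 ± 0.12 (adjusted p = 0.88). Their 95% intervals ran from -0.35 to 0.34 at the widest.

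Dnajb9 encodes ERdj4, an ER partner of BiP, and is an XBP1 target. In adults it was at 937, 896, 1009 and 1415 after LPS+MV, 1293, 1157, 1213 and 990.1 after LPS and 1226, 1110.3, 876 and 946 after MV, against 836, 719, 755 and 791 in controls. All treated adults lay above all adult controls, with LPS+MV replicate 4 the highest. It rose by 0.42 ± 0.11 (adjusted p = 0.004) with LPS+MV, by 0.56 ± 0.11 (adjusted p = 0.00036) with LPS and by 0.40 ± 0.11 (adjusted p = 0.0091) with MV. In juveniles it was at 1027, 866 and 932 after LPS+MV, 1055, 978, 1037 and 1077 after LPS and 1179.7, 1064 and 1308 after MV, against 882, 923, 922 and 742 in controls. The LPS and MV arrays were above every juvenile control. With MV it rose by 0.44 ± 0.12 (adjusted p = 0.023), which was 0.36 (adjusted p = 0.13) without MV replicate 3, 0.44 (adjusted p = 0.063) without MV replicate 1 and 0.37 (adjusted p = 0.061) without control replicate 4. The juvenile differences with LPS+MV (0.12 ± 0.12 (adjusted p = 0.52)) and LPS (0.25 ± 0.11 (adjusted p = 0.11)) did not pass.

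Sdf2l1 and Pdia4 had 1 call each against control, both in the lower direction. Sdf2l1 encodes a small ER protein that works with BiP and its partners. Its intensity ran from 114 to 265 over all arrays, and it fell with juvenile LPS+MV, with a log2 fold change of -0.43 ± 0.15 (adjusted p = 0.032), where it was at 162, 172 and 114 against 178, 207, 265 and 195 in juvenile controls. Without LPS+MV replicate 3 the change was -0.28 (adjusted p = 0.22), without control replicate 3 it was -0.33 (adjusted p = 0.12) and without control replicate 2 it was -0.43 (adjusted p = 0.055). In the other 5 treatments against control Sdf2l1 differed by -0.28 to 0.01, with no call. Pdia4 encodes the ER disulfide isomerase ERp72, and it was at 362, 222, 286 and 385 after adult LPS, against 403, 413, 416 and 417 in adult controls. The adult control arrays lay within a narrow range and the LPS arrays were widely spread below it. Pdia4 fell with adult LPS, at -0.39 ± 0.13 (adjusted p = 0.024). The value was -0.25 (adjusted p = 0.15) without LPS replicate 2 and -0.35 (adjusted p = 0.065) without LPS replicate 3. Its other differences from control were -0.30 to 0.04, with no call.

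Herpud1 encodes an ER membrane protein that assembles the ERAD machinery, and MV gave it the highest group mean at each age. In adults it was at 1012, 892, 1036 and 1226 after LPS+MV, 1182, 1037, 981 and 1057 after LPS and 1527, 1463, 1260.1 and 1738 after MV, against 836, 808, 769 and 764 in controls. Every treated adult was above every adult control, and every adult MV array was above every adult LPS or LPS+MV array. The rises were 0.37 ± 0.12 (adjusted p = 0.014) with LPS+MV, 0.41 ± 0.12 (adjusted p = 0.0091) with LPS and 0.88 ± 0.12 (adjusted p = 7.9e-06) with MV. Without LPS+MV replicate 4 the first was 0.29 (adjusted p = 0.067). Juvenile arrays read 947, 801 and 1194 after LPS+MV, 860.1, 822, 879 and 834 after LPS and 1478, 1282 and 1552 after MV, against 1039.8, 1056, 889 and 1444 in controls. The juvenile LPS arrays were below every control, and 1 control, replicate 4, lay among the MV arrays. Herpud1 fell with juvenile LPS, with a log2 fold change of -0.35 ± 0.12 (adjusted p = 0.034), and the differences with MV (0.38 ± 0.13 (adjusted p = 0.054)) and LPS+MV (-0.17 ± 0.13 (adjusted p = 0.36)) did not pass. The fall was -0.22 (adjusted p = 0.17) without control replicate 4, and the call also ended without control replicate 2 or any one of the 4 LPS arrays, with log2 fold changes of -0.34 to -0.37 and adjusted p of 0.051 to 0.072. The MV difference passed without control replicate 4, at 0.52 (adjusted p = 0.0063), and without MV replicate 2, at 0.46 (adjusted p = 0.045). The second probe set of Herpud1 rose by 0.55 with juvenile MV and did not pass after LPS at either age.

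Adding ventilation to LPS changed 0 of the 10 genes at either age by limma. Over all genes, 3.69% rose and 3.35% fell in adults for LPS+MV against LPS, and 5.97% rose and 9.45% fell in juveniles, at the adjusted threshold. At an unadjusted p under 0.05 there were 3 of 10 genes in adults and 3 of 10 in juveniles. All genes were not counted at that looser threshold, so these counts have no share to compare with. The closest to the threshold were Hspa5 in adults (-0.33 ± 0.11 (adjusted p = 0.076)) and Asns in juveniles (0.23 ± 0.09 (adjusted p = 0.088)). The adult LPS+MV and LPS arrays of Hspa5 did not overlap. Its difference passed with the mean over its probe sets (-0.31 (adjusted p = 0.046)), with the compared groups alone (-0.33 (adjusted p = 0.023)) and when both arrays of highest heat shock genes were left out (-0.33 (adjusted p = 0.04)). Trib3 in juveniles passed without LPS+MV replicate 1, at 0.28 (adjusted p = 0.049).

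Adding LPS to ventilation raised Xbp1 and Asns and lowered Herpud1 at both ages. In adults, where 12% of all genes rose and 5.34% fell, Xbp1 differed by 0.39 ± 0.08 (adjusted p = 0.00039), Asns by 0.29 ± 0.08 (adjusted p = 0.014) and Herpud1 by -0.51 ± 0.12 (adjusted p = 0.0026), and the LPS+MV and MV arrays did not overlap for any of the 3. In juveniles, where 6.93% rose and 7.78% fell, the values were 0.27 ± 0.09 (adjusted p = 0.039) for Xbp1, 0.45 ± 0.10 (adjusted p = 0.0014) for Asns and -0.55 ± 0.14 (adjusted p = 0.0062) for Herpud1, also without overlap. How many of all genes were without overlap was not counted. The adult Asns value was 0.24 (adjusted p = 0.065) without LPS+MV replicate 2 and 0.19 (adjusted p = 0.12) with quantile normalization, which also turned the share of higher genes among all those called in adults to 42.8%, against 69.2%. In juveniles, 0 of the 3 calls held in the fit of the compared groups alone, Xbp1 ended on leaving out any one of MV replicates 1, 2 and 3 or LPS+MV replicates 1 and 2 (log2 fold changes of 0.23 to 0.28, adjusted p of 0.054 to 0.15), and Herpud1 was -0.42 (adjusted p = 0.064) without LPS+MV replicate 2. Atf4, at 0.43 ± 0.15 (adjusted p = 0.055), passed without MV replicate 3, at 0.66 (adjusted p = 0.0015), and without LPS+MV replicate 1, at 0.55 (adjusted p = 0.026). Ddit3, at -0.29 ± 0.15 (adjusted p = 0.22), passed without LPS+MV replicate 3, at -0.49 (adjusted p = 0.033). In adults, Atf4 (0.34 ± 0.13 (adjusted p = 0.081)) passed without MV replicate 2, at 0.44 (adjusted p = 0.028), and with the Xist term, at 0.39 (adjusted p = 0.03). Trib3 (-0.19 ± 0.08 (adjusted p = 0.088)), whose LPS+MV and MV arrays did not overlap, passed with quantile normalization, at -0.24 (adjusted p = 0.031), and with the mean over its probe sets, at -0.19 (adjusted p = 0.013).

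In adults the combined treatment changed 4 genes by less than the sum of the 2 treatments given alone. The interaction of LPS and MV, which is the log2 change with LPS+MV less the changes with LPS and with MV, was -0.92 ± 0.17 (adjusted p = 0.0027) for Herpud1, -0.70 ± 0.16 (adjusted p = 0.01) for Hspa5, -0.66 ± 0.11 (adjusted p = 0.0012) for Xbp1 and -0.54 ± 0.16 (adjusted p = 0.042) for Dnajb9. The other 6 interactions did not pass, and only 2 of all 10 were positive, so a negative sign was not limited to these 4 genes. For Herpud1, the changes were 0.37 with LPS+MV, 0.41 with LPS and 0.88 with MV. For Hspa5 they were 0.28 with LPS+MV, 0.61 with LPS and 0.38 with MV. Over all genes 1.66% had a negative interaction and 5.5% a positive one, and with quantile normalization 46.8% of the called interactions were positive, against 76.8%. For Dnajb9 the call ended without a filter, with the compared groups alone or on leaving out any one of 11 arrays, which were adult control replicates 2, 3 and 4, MV replicates 1 and 2, LPS replicates 1, 2 and 3 and LPS+MV replicates 1, 2 and 3, with adjusted p of 0.051 to 0.094. In juveniles, 0 of 10 interactions passed by limma. Over all genes 0.336% had a positive one and 0.413% a negative one at the adjusted threshold. At an unadjusted p under 0.05 there were 3 of 10, and all genes were not counted at that looser threshold. The juvenile interaction of Dnajb9 was -0.57 ± 0.17 (adjusted p = 0.13), against -0.54 ± 0.16 in adults, and that of Herpud1 was -0.20 ± 0.18 (adjusted p = 0.72).

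Before treatment, adult lungs had less Hspa5 and Herpud1 than juvenile lungs. Hspa5 averaged 3314 ± 398 in adult controls and 4471 ± 736 in juvenile controls (SD, n = 4 each), a difference of -0.42 ± 0.11 (adjusted p = 0.0074), and 1 juvenile control lay among the adults. Herpud1 averaged 794 ± 34.2 in adult controls and 1107 ± 237 in juvenile controls, without overlap, a difference of -0.44 ± 0.12 (adjusted p = 0.0071). In all, 0 of 10 genes were higher and 2 lower in adult controls, with 15.1% of all genes higher and 10.1% lower. The Atf4 arrays of adult controls all lay below those of juvenile controls, with a difference of -0.24 ± 0.13 (adjusted p = 0.19), which did not pass with all 8 groups in the fit. Asns was higher in adult controls by 0.18 ± 0.08 (adjusted p = 0.11), which did not pass, and it passed with the mean over its probe sets (0.28 (adjusted p = 0.031)) and with the Xist term (0.24 (adjusted p = 0.015)). Xbp1, at -0.15 ± 0.08 (adjusted p = 0.16), passed without juvenile control replicate 4, at -0.21 (adjusted p = 0.046).

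The change with LPS differed by age for Herpud1 and Xbp1. The interaction of age with LPS, the adult less the juvenile log2 fold change, was 0.76 ± 0.17 (adjusted p = 0.0089) for Herpud1, whose change was 0.41 in adults and -0.35 in juveniles. For Xbp1 it was 0.51 ± 0.11 (adjusted p = 0.0057), with changes of 1.04 in adults and 0.53 in juveniles. So 2 of 10 genes had a more positive change in adults and 0 a more negative one, with 1.31% and 2.38% over all genes. Both calls held on leaving out each array in turn. Herpud1 averaged 1064 ± 84.7 in adult LPS lungs and 849 ± 25.7 in juvenile LPS lungs (SD, n = 4 each). Hspa5 (0.51 ± 0.16 (adjusted p = 0.079)) did not pass. It passed without juvenile control replicate 4, at 0.62 (adjusted p = 0.013), and without adult control replicate 1, at 0.58 (adjusted p = 0.042). Ddit3 (0.53 ± 0.19 (adjusted p = 0.13)) passed with the compared groups alone, at 0.53 (adjusted p = 0.042). With LPS+MV, 1 of 10 genes differed in the positive direction and 0 in the negative one, with 0.856% and 1.25% over all genes. That gene was Xbp1, at 0.41 ± 0.11 (adjusted p = 0.049), with changes of 0.88 in adults and 0.46 in juveniles, and the call ended under 7 of the 9 other settings with all arrays and on leaving out any one of 13 of the 15 arrays involved. Without juvenile LPS+MV replicate 3 it was 0.35 (adjusted p = 0.13). Herpud1 (0.54 ± 0.18 (adjusted p = 0.097)) passed without that array, at 0.68 (adjusted p = 0.048), and Hspa5 (0.38 ± 0.17 (adjusted p = 0.22)) without juvenile control replicate 4, at 0.49 (adjusted p = 0.047).

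With MV, 0 of 10 genes passed the interaction with age by limma. Over all genes, at the same adjusted threshold, 1.3% had a more positive change in adults and 4.84% a more negative one. With quantile normalization 46.3% of those called were more positive, against 21.2%. At an unadjusted p under 0.05 there were 4 of the 10 genes, and all genes were not counted at that looser threshold. The largest differences were 0.50 ± 0.18 (adjusted p = 0.086) for Herpud1, 0.47 ± 0.19 (adjusted p = 0.14) for Atf4 and 0.42 ± 0.17 (adjusted p = 0.14) for Hspa5. Without juvenile MV replicate 3, the array of highest heat shock genes, Atf4 passed at 0.70 (adjusted p = 0.015) and Hspa5 at 0.58 (adjusted p = 0.026). Without juvenile control replicate 4, Hspa5 was 0.53 (adjusted p = 0.031) and Xbp1 was 0.35 (adjusted p = 0.043), and without juvenile control replicate 3 Herpud1 was 0.59 (adjusted p = 0.045). For Ddit3, Dnajb9 and Trib3 the age differences with MV were -0.05, -0.04 and -0.02, with 95% intervals of -0.45 to 0.35, -0.38 to 0.31 and -0.26 to 0.21.

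**Figure D3:**
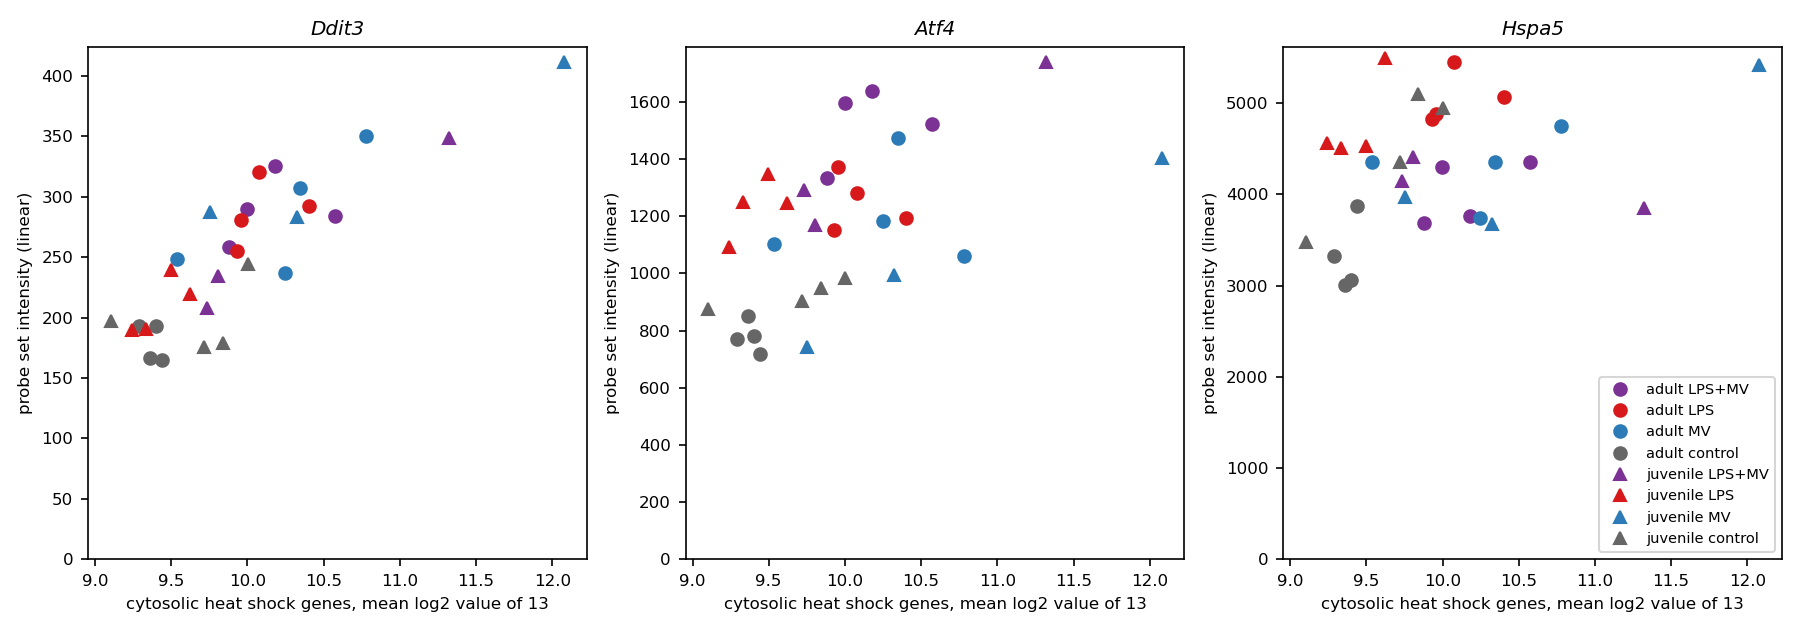
Intensity (linear, y axis from 0) of Ddit3, Atf4 and Hspa5 against the mean log2 value of 13 cytosolic heat shock genes, 1 point per animal, with circles for adults and triangles for juveniles. Juvenile MV replicate 3 (12.1) and juvenile LPS+MV replicate 3 (11.3) lie far to the right, with the highest Ddit3 in the first and the highest Atf4 in the second.

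Cytosolic heat shock genes moved with several of these groups. Of the 13, 6 rose with adult LPS+MV, 4 with adult LPS, 4 with adult MV, 1 with juvenile LPS+MV, 0 with juvenile LPS and 3 with juvenile MV. Over all genes 14.8%, 12.9%, 7.17%, 10.8%, 9.58% and 4.41% rose in these comparisons, in the same order. The counts with juvenile LPS+MV and juvenile LPS were thus not above the share of all genes. Hspa1a, the inducible Hsp70, rose with MV in adults (3.06 ± 0.83 (adjusted p = 0.006)) and juveniles (3.05 ± 0.89 (adjusted p = 0.027)), and had an intensity of 6849 on juvenile MV replicate 3 and of 2915 on juvenile LPS+MV replicate 3. Without both arrays, 1 of the 10 stress genes passed with juvenile MV in place of 3, and that was Ddit3. Without both, the counts were 3 with juvenile LPS+MV, in place of 4, and in the adult comparisons with control they stayed at 7. Their part in the results was not tested further. Neutrophil markers (9 measured) had a summed intensity of 22128 to 35992 after adult LPS, of 18899 to 24579.8 after adult LPS+MV and of 2716 to 10349.5 after adult MV, against 2944 to 24036 in adult controls. In juveniles the sums were 16919 to 17866 after LPS+MV, 7495 to 9157 after LPS and 3429 to 5879 after MV, against 1074 to 4193 in controls. Airway secretory markers (9 measured) summed to 42187 to 49138 with adult MV, against 39164 to 43176 in adult controls. With adult MV 5 of 9 rose, against 7.17% of all genes, among them Agr2, an ER protein of mucous cells (0.75 ± 0.10 (adjusted p = 9.9e-06)). Agr2 read 13.2 to 16.4 in adult controls, below the array medians of 21.6 to 22.8, and 30.3 to 73.4 with adult MV. In adults, only MV arrays without LPS carried it over the filter on dim probe sets. The rise of Agr2 is therefore not independent of that filter. Red cell markers (3 measured) summed to 831 to 1141 with adult LPS+MV, 1458 to 2418 with adult LPS and 699 to 1017 with adult MV, against 1689 to 2173 in adult controls, and 3 of 3 fell with LPS+MV and with MV. They also fell, 2 of 3, with juvenile MV. Of all genes, 27.3% fell with adult LPS+MV, 24.3% with adult MV and 6.45% with juvenile MV. B and plasma cell markers (8 measured) summed to 891 to 7497 with adult LPS+MV, 1494 to 1957 with adult LPS and 1153 to 1441 with adult MV, against 1613 to 3475 in adult controls. Of these, 3 of 8 fell with LPS+MV and with MV, not far from the 27.3% and 24.3% of all genes. Heart muscle markers (6 measured, 0 passed against control at either age) reached a sum of 16077 on 1 juvenile LPS array and of 14261 on 1 adult LPS+MV array, against 8419 at most in adult and 8216 at most in juvenile controls. The part of these cells in the changes of the 10 genes was not tested.

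The other genes of the pathway moved in both directions. The 19 ER chaperones and folding enzymes, counted without the 10 genes, had the highest share of falling genes with juvenile LPS+MV, where 0 rose and 11 fell (57.9% lower, against 20.5% of all genes). With adult LPS+MV 0 rose and 5 fell (26.3% lower, against 27.3% of all genes), which is near the share of all genes. With LPS 3 rose and 6 fell in adults (31.6% lower, against 23%), and 0 rose and 2 fell in juveniles (10.5%, against 13.3%). With MV 1 rose and 3 fell in adults (15.8% lower, against 24.3%), and 0 rose and 3 fell in juveniles (15.8%, against 6.45%). Calr, a lectin chaperone, fell with adult LPS+MV (-0.54 ± 0.10 (adjusted p = 4.7e-05)), with adult LPS (-0.42 ± 0.10 (adjusted p = 0.0012)), with adult MV (-0.53 ± 0.10 (adjusted p = 0.00018)) and with juvenile MV (-0.52 ± 0.10 (adjusted p = 0.0023)). Pdia6, a disulfide isomerase, was among the 11 that fell with juvenile LPS+MV (-0.62 ± 0.14 (adjusted p = 0.0012)), as were Cnpy2 (-0.58 ± 0.12 (adjusted p = 0.00042)) and Creld2 (-0.52 ± 0.12 (adjusted p = 0.0017)). Manf, a secreted ER stress protein, rose with adult LPS (0.84 ± 0.14 (adjusted p = 2.8e-05)) and adult MV (0.49 ± 0.14 (adjusted p = 0.0075)) and fell with juvenile LPS+MV (-0.44 ± 0.15 (adjusted p = 0.026)), and its interaction of LPS and MV in adults was -1.07 ± 0.19 (adjusted p = 0.0025). The median log2 fold change of the 19 was -0.29 with juvenile LPS+MV, against -0.05 over all genes, and -0.14 with adult LPS+MV. Without both arrays of highest heat shock genes, 9 fell with juvenile LPS+MV.

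The 19 ERAD and ER translocation genes gave 1 higher and 6 lower with LPS+MV at each age, 31.6% lower against 27.3% of all genes in adults and 20.5% in juveniles. With LPS 2 rose and 3 fell in adults (15.8% lower, against 23%), and 0 rose and 1 fell in juveniles, where 13.3% of all genes fell. Edem2, which sorts misfolded glycoproteins, fell with adult LPS+MV (-0.46 ± 0.09 (adjusted p = 0.00028)), and Selenos, a membrane anchor of the machinery, fell with adult (-0.32 ± 0.06 (adjusted p = 0.00022)) and juvenile LPS+MV (-0.46 ± 0.07 (adjusted p = 1.1e-05)). Ubxn4, which recruits the p97 ATPase to the ER, was the one that rose in adults (0.31 ± 0.08 (adjusted p = 0.0019)) and juveniles (0.36 ± 0.08 (adjusted p = 0.0017)). With quantile normalization the adult count was 2 higher and 10 lower. Syvn1, the ERAD ubiquitin ligase that partners Herpud1, fell with adult MV (-0.57 ± 0.10 (adjusted p = 0.00012)), where Herpud1 rose, and 1 of 19 rose and 4 fell there (21.1% lower, against 24.3% of all genes). With quantile normalization those adult MV counts were 4 higher and 3 lower. Of 9 sensors and processing proteases, 0 rose and 5 fell with adult MV (55.6% lower, against 24.3% of all genes), 0 rose and 4 fell with adult LPS (44.4%, against 23%), and 0 rose and 2 fell with adult LPS+MV (22.2%, against 27.3%). In juveniles 0 rose and 3 fell with LPS+MV (33.3%, against 20.5%). There, 1 of 9 fell with LPS, where 13.3% of all genes fell, and 1 of 9 with MV, where 6.45% did. Ern1, which encodes IRE1, fell with adult LPS (-0.47 ± 0.15 (adjusted p = 0.016)) and Eif2ak3, which encodes PERK, fell with juvenile LPS+MV (-0.48 ± 0.12 (adjusted p = 0.0022)). With adult MV, 1 sensor fell with the Xist term and 2 with quantile normalization.

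**Figure D4:**
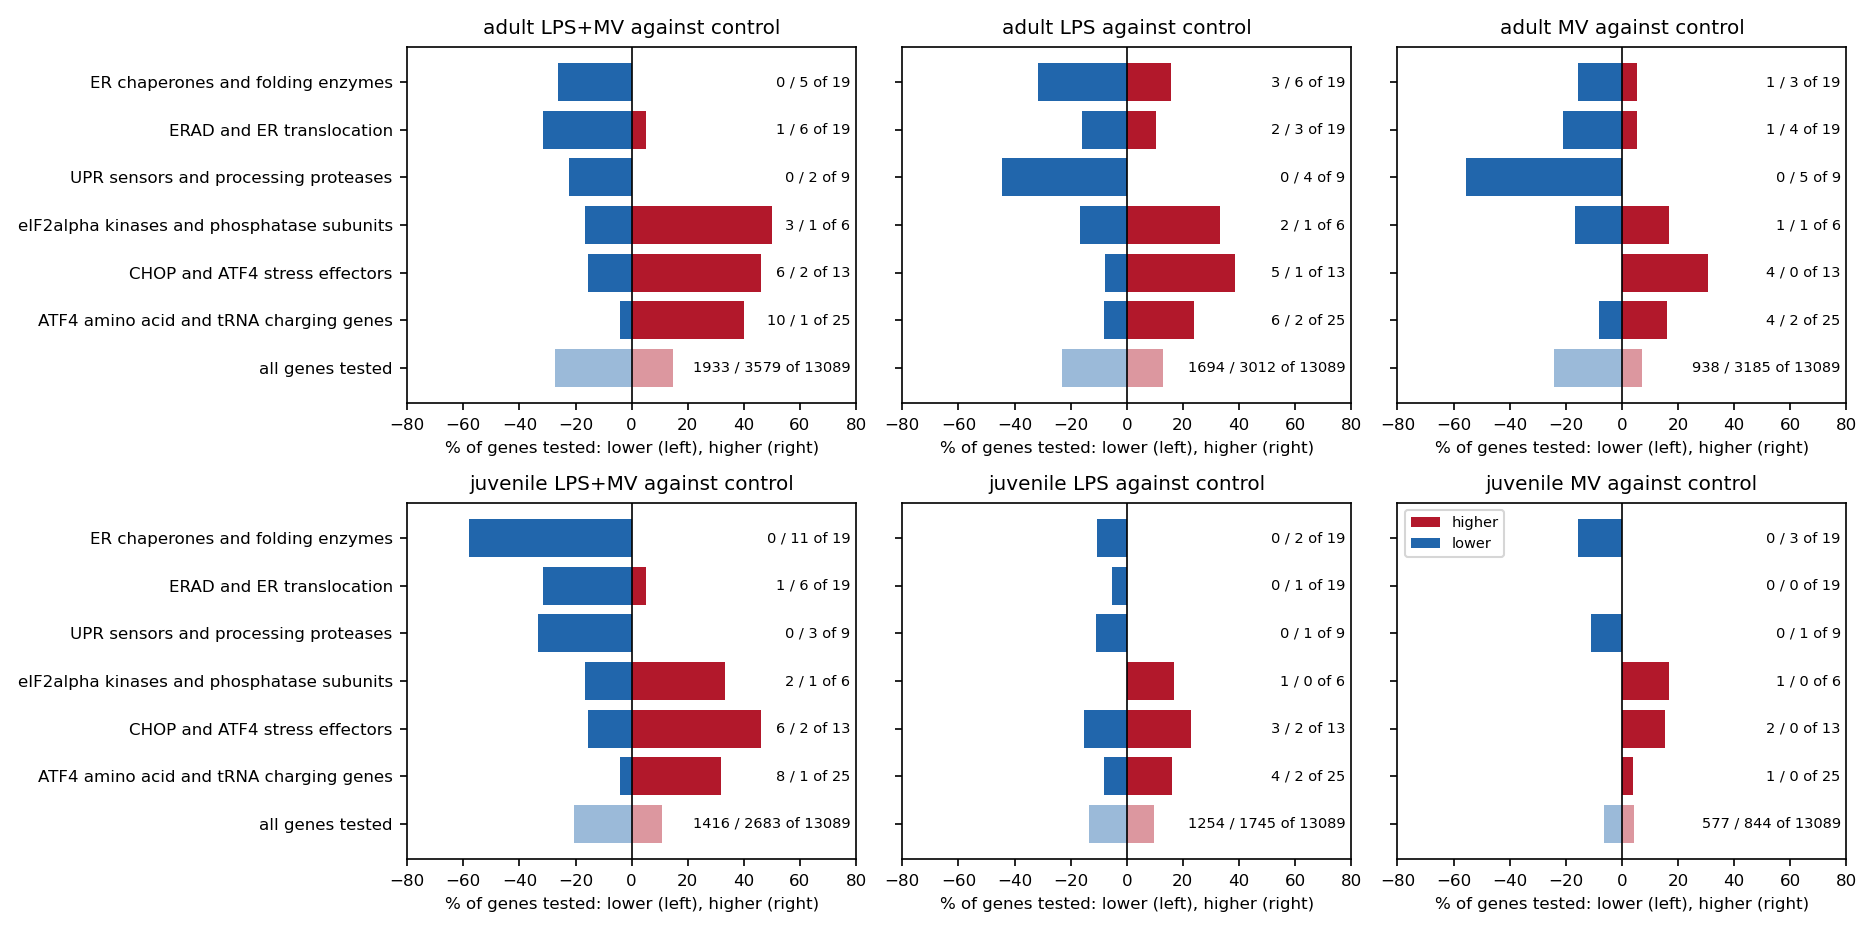
Share of each gene list (x axis, % of the genes tested) that was lower (blue, left) or higher (red, right) than the control of the same age after LPS+MV, LPS and MV, adults above and juveniles below. The numbers in each panel are genes higher / lower of those tested. The bottom bar is the share over all 13089 genes tested, which has more genes lower than higher in all 6 panels. The chaperone, ERAD and sensor lists lean the same way in adults, while the lists of CHOP and ATF4 effectors and of amino acid genes have more genes higher than lower in all 6 panels.

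Of 13 stress effectors downstream of ATF4 and CHOP, 6 rose and 2 fell with LPS+MV at each age (46.2% higher and 15.4% lower). Over all genes 14.8% rose and 27.3% fell with LPS+MV in adults, and 10.8% rose and 20.5% fell in juveniles. Atf3, an early stress factor, rose most (2.92 ± 0.47 (adjusted p = 1.6e-05) in adults and 2.74 ± 0.51 (adjusted p = 0.00017) in juveniles), followed by Nupr1, a small stress-induced chromatin protein (0.91 ± 0.10 (adjusted p = 5.1e-08) in adults and 1.26 ± 0.11 (adjusted p = 7.2e-10) in juveniles). Vldlr, a lipoprotein receptor, fell with LPS+MV at both ages (-0.88 ± 0.11 (adjusted p = 2.9e-07) in adults and -0.68 ± 0.12 (adjusted p = 6.9e-05) in juveniles). With LPS, 5 rose and 1 fell in adults (38.5% higher, against 12.9% of all genes) and 3 rose and 2 fell in juveniles (23.1%, against 9.58%). With MV 4 rose and 0 fell in adults (30.8%, against 7.17%) and 2 rose and 0 fell in juveniles (15.4%, against 4.41%). Chac1, a glutathione-degrading target of ATF4, rose with adult MV (0.78 ± 0.18 (adjusted p = 0.0022)). With the Xist term the adult MV count was 1 higher and 1 lower. Ppp1r15a, which encodes the GADD34 subunit that dephosphorylates eIF2α, rose with LPS+MV in adults (0.86 ± 0.23 (adjusted p = 0.0033)) and juveniles (1.08 ± 0.24 (adjusted p = 0.0012)), and Ppp1r15b, its constitutive counterpart, rose in adults (0.49 ± 0.07 (adjusted p = 3e-06)) and juveniles (0.39 ± 0.08 (adjusted p = 0.00023)). Among eIF2α kinases, Eif2ak1, the haem-regulated kinase, fell with adult LPS+MV (-0.48 ± 0.08 (adjusted p = 2.3e-05)), and Eif2ak2, the double-stranded RNA sensor PKR, rose (0.41 ± 0.16 (adjusted p = 0.038)). Ppp1r15a and Eif2ak3 stand in more than 1 pathway list. Derl3 is counted both as an ERAD gene and as a B and plasma cell marker, and Scgb1a1 as a lung epithelium and an airway secretory marker.

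Of 25 amino acid and tRNA charging genes that ATF4 is known to activate, 10 rose and 1 fell with adult LPS+MV (40% higher, against 14.8% of all genes) and 8 rose and 1 fell with juvenile LPS+MV (32%, against 10.8%). Transporters led. Slc7a11, the cystine importer, rose in adults (1.45 ± 0.10 (adjusted p = 1e-11)) and juveniles (0.93 ± 0.11 (adjusted p = 3.1e-07)), as did Slc7a1, which takes up cationic amino acids (1.26 ± 0.10 (adjusted p = 1.3e-10) in adults and 0.95 ± 0.11 (adjusted p = 1.3e-07) in juveniles). Slc3a2, the heavy chain that partners Slc7a11, rose in adults (0.72 ± 0.17 (adjusted p = 0.0012)) and juveniles (1.18 ± 0.18 (adjusted p = 1.9e-05)). Slc7a11 is also known as a target of NRF2. It read 11.1 to 15.9 in adult controls, below the array medians of 21.6 to 22.8, and 63.2 to 111.6 after adult LPS+MV. In adults, only arrays given LPS carried it over the filter on dim probe sets. The rise of Slc7a11 is therefore not independent of that filter. Of 11 tRNA charging enzymes, 4 rose in adults, and Cars, for cysteine, had the largest change (0.38 ± 0.08 (adjusted p = 0.0006)) and was the one that rose in juveniles (0.25 ± 0.09 (adjusted p = 0.032)). Among serine synthesis genes, Psph fell with juvenile LPS+MV (-0.42 ± 0.11 (adjusted p = 0.0049)) and Psat1 fell with juvenile LPS (-0.62 ± 0.16 (adjusted p = 0.0055)). With LPS 6 rose and 2 fell in adults (24% higher, against 12.9%) and 4 rose and 2 fell in juveniles (16%, against 9.58%). With MV 4 rose and 2 fell in adults (16%, against 7.17%) and 1 rose and 0 fell in juveniles (4%, against 4.41%). Without both arrays of highest heat shock genes, 5 rose and 1 fell with juvenile LPS+MV. With the Xist term, 7 rose and 2 fell with adult LPS+MV and 1 rose and 1 fell with adult MV. The change of Slc7a1 with LPS was larger in adults, with an interaction of 0.62 ± 0.14 (adjusted p = 0.012).

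Across the 30 arrays the 10 genes fell into loose sets. Pearson's r of the log2 values, given as a description since the arrays share groups, was 0.71 for Atf4 and Xbp1, 0.68 for Ddit3 and Dnajb9, 0.69 for Herpud1 and Trib3, 0.65 for Hspa5 and Dnajb9 and -0.50 for Xbp1 and Pdia4. After group means were removed, it was -0.15 for Atf4 and Xbp1, 0.61 for Atf4 and Ddit3, 0.62 for Xbp1 and Dnajb9, 0.56 for Xbp1 and Sdf2l1, 0.52 for Sdf2l1 and Pdia4 and 0.52 for Herpud1 and Trib3. Atf4 and Xbp1 thus had a high r across all arrays and none of that size within groups. Of 13079 other genes, the 5 with the highest r to Hspa5 were Manf (0.92), Cct8 (0.81), Cct3 (0.80), Uso1 (0.79) and Lrrc59 (0.78). Those with the highest r to Atf4 were Etf1 (0.91), Rassf1 (0.91), Dusp16 (0.90), Atf3 (0.89) and Eif2s2 (0.89).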

How the data were processed

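Affymetrix mouse arrays of 30 lungs were read from the deposited table, which holds 1 linear intensity per probe set and array, and how the authors normalized it is not given in the sources used here. The submitters' processing notes name MAS5 alone. Of 45037 probe sets, 34945 had 1 gene symbol, 932 several and 9160 none listed, and RefSeq identifiers were found for 34741 and changed 0 symbols. A probe set was kept where 3 or more arrays had it over that array's median (24825 kept), values were taken as log2(intensity + 32), and each gene was represented by its probe set of highest mean (13089 of 18193 named genes). Array medians were 21.6 to 22.8, and the number of arrays limits precision.

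limma 3.58.1 under R 4.3.3 fitted linear models with 8 group means (eBayes with intensity trend, 22 residual and 4.87 prior degrees of freedom). The 16 comparisons were two-sided and adjusted over all genes within a comparison. Nothing beyond 1 animal per array is known of litter or hybridization batch, so p-values measure the spread between these animals. Sex was not labelled and was read from Xist and Eif2s3y alone. The genes and gene lists were chosen with earlier results of these data known. Any of the 10 genes could be named in any comparison, and of a list up to 3 genes that passed with the largest change, or others with their value. Same-numbered replicates did not deviate together (mean r of 0.05, against -0.02 for different numbers), except in juvenile LPS+MV and MV, where all 3 pairs had r of 0.12 to 0.33, and the replicate block left the count of genes called there at 3. No 2 arrays held identical values. The model was tested on simulated data first. Alternatives were averaging a gene's probe sets, no filter, quantile normalization, a pseudocount of 1, every probe set on its own, no trend, only the groups compared, the replicate block, a term for the Xist pattern and each array left out. Leaving out both arrays of highest heat shock genes was chosen after seeing the data. Figures were drawn with matplotlib 3.10.9.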

Additional observations from a re-analysis of the deposited data

Results flagged for a closer look

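Juvenile LPS replicate 3 stood apart for Hspa5, with an intensity of 5493 against 4510.3 to 4566 on the other 3 juvenile LPS arrays, and the gap was 0.94 of the range of the group. It was the only one among 60 sets of a gene and a group of 4 that were tested, of which chance alone marks about 1 in 20. The change with LPS differed by age for Xbp1, where the adult change exceeded the juvenile one by 0.51 on the log2 scale, and for Herpud1, where it did so by 0.76. The change with LPS+MV differed by age for Xbp1, by 0.41, at an adjusted p of 0.049 by limma, and that call ended under 7 of the 9 other settings with all arrays and on leaving out any one of 13 of the 15 arrays involved.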

How the results depend on the processing

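No call among the 10 genes changed its direction. Over genes, comparisons and settings, 1535 values with all arrays or without both arrays of highest heat shock genes kept their side of the threshold, 38 lost a call and 27 gained one. With single arrays left out, 1506 kept it, 65 lost a call and 19 gained one. With only the compared groups in the fit, 0 of the 10 genes passed with juvenile MV against control (3 as reported), 0 with juvenile LPS+MV against MV (3), 1 with adult LPS+MV against LPS (0) and 0 with age by LPS+MV (1). With the Xist term, 3 passed with adult MV against control (7) and 0 with age by LPS+MV. Age by LPS+MV also gave 0 with no filter, a pseudocount of 1, quantile normalization, every probe set on its own and the mean over probe sets, and adult LPS+MV against LPS gave 1 with the mean over probe sets. Without both arrays of highest heat shock genes, chosen after seeing the data, 1 passed with juvenile MV, 1 with adult LPS+MV against LPS, 5 with adult LPS+MV against MV (3), 3 with age by MV (0) and 4 with age by LPS (2). The causes were not tested, beyond the fewer arrays that carry the estimate of spread when groups are left out. The replicate block moved the count of genes called to 4 with juvenile MV and to 6 with adult LPS+MV, and left the other 14 counts unchanged.

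Leaving out each array in turn gave counts of 0 to 4 with juvenile MV, 1 to 3 with juvenile LPS, 2 to 5 with juvenile LPS+MV, 0 to 1 and 1 to 4 with juvenile LPS+MV against LPS and against MV, and 0 to 0 for the juvenile interaction. In adults it gave 6 to 7 with MV, 6 to 7 with LPS, 5 to 7 with LPS+MV, 0 to 0 and 2 to 4 with LPS+MV against LPS and against MV, and 3 to 4 for the interaction. It gave 2 to 3 between the controls, and 0 to 2, 2 to 3 and 0 to 2 for age by MV, LPS and LPS+MV.

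Over all genes, the Xist term gave 1712 calls with adult MV (4123 as reported), 1132 with juvenile LPS+MV against LPS (2019), 246 with adult LPS+MV against LPS (922) and 189 with age by MV (803). The compared groups alone gave 27 with juvenile MV (1421), 2659 with juvenile LPS+MV (4099), 1324 and 1045 with juvenile LPS+MV against LPS (2019) and against MV (1925), 38 for the juvenile interaction (98), 410 with age by MV and 71 with age by LPS+MV (275). Quantile normalization gave 157 for the juvenile interaction, the replicate block 418 with age by LPS+MV, and leaving out both arrays of highest heat shock genes 788 with juvenile MV. Groups of 3 or 4 animals, and for Trib3 an intensity near the array medians, limit what can be detected.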
